A study of Mus musculus with 8 samples.

Results

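Plasmacytoid dendritic cells (pDC), the immune cells best known for making type I interferon when they sense viral nucleic acid, were grown from bone marrow precursors of female BALB/c mice with the cytokine mFlt3-L. They were then sorted into Sca-1- and Sca-1+ populations, Sca-1 being the surface protein encoded by Ly6a. RNA from 4 Sca-1- and 4 Sca-1+ samples was read on 8 single-colour Agilent arrays. Described here are 44 genes of the machinery that drives and brakes cell division: cyclins, cyclin-dependent kinases (CDK) and their inhibitors, the E2F and pocket protein families, Foxm1 and Mybl2, and regulators of the anaphase-promoting complex (APC/C). They were listed by name from 36095 named features on the array, and the list was made with earlier results of these data known. Of the 44, 40 were among the 19818 genes with a probe clearly over background in 4 or more of the 8 arrays, and only these were tested. Both groups share the strain, the sex, the marrow source, the cytokine and the sorting by magnetic beads and flow cytometry, and they differ in the labels only by Sca-1. Age, culture time and the number of animals are not given in the sources used here. The labels do not state whether the 4 samples of a group are separate cultures or mice. The p-values then reflect the spread among these samples alone, and that spread may be technical.

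As background, a cell enters its cycle when D-type cyclins with Cdk4 or Cdk6, and then cyclin E with Cdk2, phosphorylate the retinoblastoma (pocket) proteins and free E2F factors to switch on the genes of DNA replication. Later, Mybl2 and Foxm1, working with the MuvB complex at promoter elements called CHR, switch on cyclins A and B, Cdk1 and the other mitotic genes, and the APC/C with Cdc20 or Fzr1 then marks these proteins for destruction. Mature pDC divide little, whereas the marrow precursors from which Flt3 ligand raises them divide actively. In bulk RNA such as this, fewer cells in a phase and less transcript per cell cannot be told apart.

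A probe counts as detected on an array where it was marked well above background. Each level below is a log2 signal relative to the 75th percentile of its own array, from 1 probe a gene, and levels of different genes are not compared because probes differ in brightness. Each difference is Sca-1+ minus Sca-1-, so a negative value means lower in Sca-1+ pDC. A gene is called when its Benjamini-Hochberg adjusted p over all tested genes was under 0.05 in limma. The 75th percentile of processed signal was 171 to 262 on the 6 arrays of slides 1 to 3, and 450 and 503 on the 2 arrays of slide 4. Slide 4 was also read with another image extraction protocol, per the file headers, and its arrays stood apart from the other 6. Every slide held 1 sample of each group, with the Sca-1- sample at the same position on each, so array position and group cannot be told apart. Ly6a was higher by 4.24 to 4.96 in the Sca-1+ sample of each of the 4 slides, which checks the labels. All 12 pDC markers were detected in both groups and 0 were called unpaired, while with the slide as a block Irf7 (0.94, adjusted p = 0.143, and 0.00606 blocked), Tlr7 (0.58, 0.0460 blocked) and Ccr9 (0.55, 0.0495 blocked) were higher. Markers of other blood cells were partly present: Cd79a, Cd79b and Blk of the B cell list and Cd3e and Nkg7 of the T and NK list were detected on all 8 arrays, Cd3g, Ncr1 and Klf1 on 0, and 0 of 4 erythroid markers were bright enough to test. None of those B, T and NK markers was called unpaired or blocked. Of the conventional DC list, 0 were called unpaired, and with the slide as a block Zbtb46 was lower (-1.20, adjusted p = 0.0131) and Sirpa higher (0.54, adjusted p = 0.0420).

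Of the 40 tested cell cycle control genes, 15 fell in Sca-1+ pDC in the unpaired comparison. These 15 all belong to the classes whose transcripts peak at the start of DNA replication (7) or in G2 and mitosis (8). The classes were set with earlier results of these data known, so this split is a description only. None of the 40 rose, and the shares called among all tested genes were 1.58% lower and 0.126% higher. The 15 falls ranged from -2.27 to -0.75 (1.68- to 4.83-fold), with adjusted p from 0.00503 to 0.0412. Over all 40 the median difference was -0.92, against 0.03 for all tested genes, and 36 of the 40 differences were negative. In 20 members every Sca-1+ array lay below every Sca-1- array, and in 0 the reverse held, against 5.04% and 1.91% of all tested genes. With the slide as a block, 25 members were lower and 0 higher, against backgrounds of 4.12% and 2.1%, and the 25 held all 15. They also held Ccnd2, Ccnd3, Cdk2, Skp2 and Tfdp1, which belong to neither of those classes.

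The calls of the unpaired comparison depended on which slides entered it. Without both arrays of slide 1, 2 or 3, it called 0, 0 and 1 member (Ccnf), although all 15 differences were still negative, with medians of -1.94, -2.01 and -1.97 against -2.00 with every slide. Without slide 4 it called 23. Over all 19818 tested genes, lower calls without slide 1, 2, 3 or 4 numbered 0, 0, 27 and 615. Blocked by slide, leaving out slide 1, 2, 3 or 4 gave 18, 20, 18 and 25 members lower. These held 14, 14, 14 and 15 of the 15, with Cdkn2c the gene lost without slide 1, 2 or 3. Over all tested genes, the blocked fits called 360, 440, 273 and 627 lower. Leaving out a single array gave 10 to 18 members lower in the unpaired comparison, and the calls of Ccnb1, Ccne1, Cdkn2c, E2f2 and Mybl2 ended in at least 1 of these. Over all tested genes, lower calls then numbered 156 to 374, against 314 with every array.

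**Figure D1:**
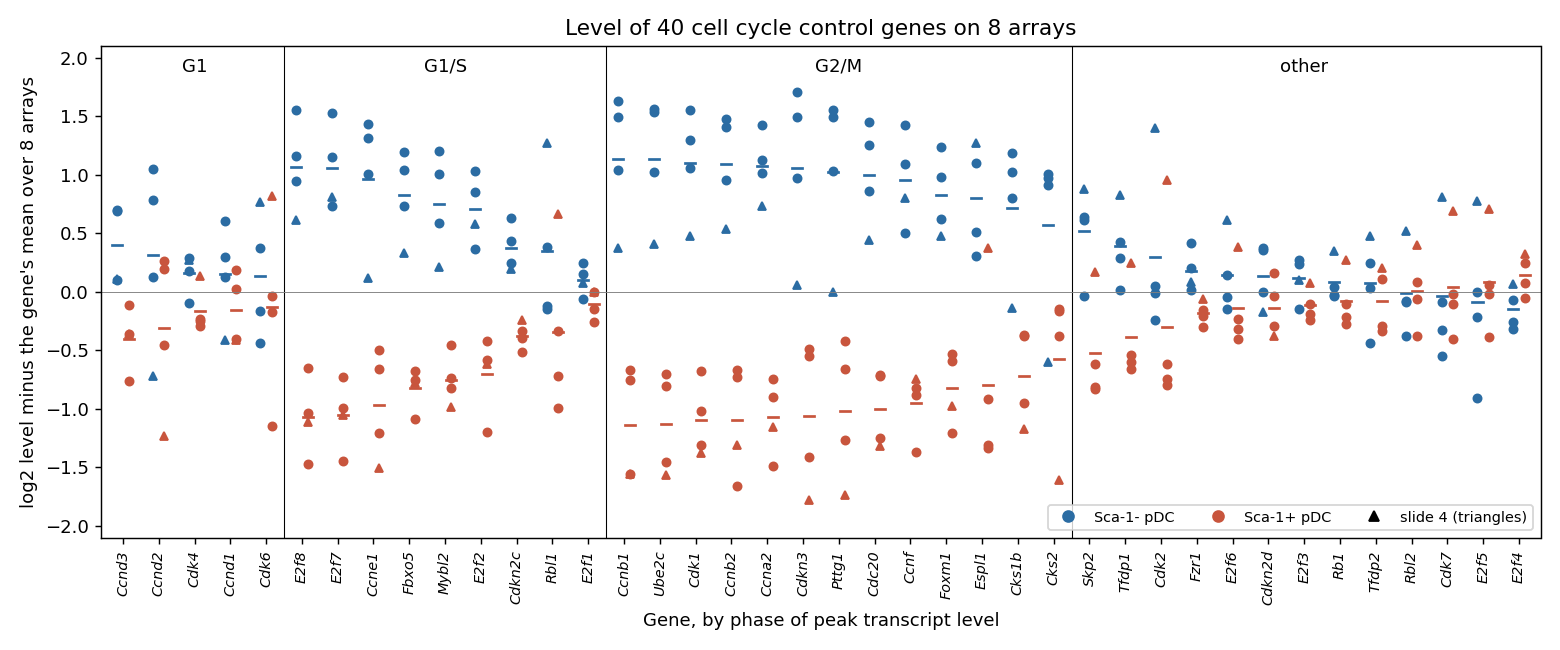
Level of each of the 40 tested genes on the 8 arrays (log2 signal relative to the array's 75th percentile, minus the gene's mean over all arrays), for Sca-1- (blue) and Sca-1+ (red) pDC. Short bars are group means, triangles mark slide 4, and genes are ordered by difference within 4 phase classes. The colours separate for most G1/S and G2/M genes and overlap for most others.

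Markers of progenitors and monocytes mostly did not pass, although single genes of each list were lower. All 6 progenitor markers (Kit, Cd34, Gata2, Flt3, Cd93 and Meis1) had negative differences, of which only that of Cd93 was called (-1.98, adjusted p = 0.00503) and that of Meis1 was -0.035. Their summed linear level, most of it Flt3, was 42.4 to 72.6 in Sca-1- and 30.1 to 61 in Sca-1+ samples. Of 6 monocyte and macrophage markers, 3 were tested, all 3 differences were negative and 0 were called unpaired. Csf1r, the receptor for the macrophage growth factor, read 4.04 to 4.81 in Sca-1- and 2.45 to 3.74 in Sca-1+ samples, without overlap, and passed with the slide as a block (-1.19, adjusted p = 0.171, and 0.00637 blocked). The summed level of the list, most of it Csf1r, was 23.5 to 37.1 in Sca-1- and 9.41 to 18.6 in Sca-1+ samples. The pDC markers summed to 1910 to 2660 in Sca-1- and 2230 to 2790 in Sca-1+ samples. Sums are read between groups within a list and not between lists, because probes differ in brightness, so they do not size cell populations. The part of these other cells in the results below was not tested.

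The genes that carry cells into and through mitosis showed the lowest median of the 7 role groups. In the group of mitotic cyclins, Cdk1 and the Cks adaptors, 5 of 7 fell, all 7 with the slide as a block, and the median was -2.15. Ccna2, encoding cyclin A, which serves both DNA replication and entry into mitosis, read 3.18, 2.89, 2.77 and 2.49 on the Sca-1- arrays of slides 1 to 4. On the Sca-1+ arrays it read 1.01, 0.86, 0.27 and 0.60. The lowest Sca-1- array thus lay well above the highest Sca-1+ array. The fitted difference was -2.15 ± 0.21 (SE), or 4.43-fold lower (adjusted p = 0.00503), from a probe at chr3:36463978-36464037 (mm9).

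Cdk1, the kinase that cyclins A and B activate, read 1.58, 1.32, 1.09 and 0.50 in Sca-1- samples and -0.997, -0.652, -1.28 and -1.35 in Sca-1+ samples. Every Sca-1+ value was below the 75th percentile of its array and every Sca-1- value above it (-2.19 ± 0.26, 4.57-fold, adjusted p = 0.00577). Other Cdk1 probes, both dim, differed by -1.63 and -0.36, the latter detected on 3 of 8 arrays, and with the mean over its probes the gene did not pass (adjusted p = 0.174). Ccnb2, a B-type cyclin that activates Cdk1 at mitotic entry, read 4.81, 4.74, 4.28 and 3.87 in Sca-1- and 2.67, 2.60, 1.67 and 2.02 in Sca-1+ samples. Its 4.55-fold fall (-2.19 ± 0.29, adjusted p = 0.00841) was close in size to that of Ccnb1, the other B-type cyclin (-2.27 ± 0.33, 4.83-fold, adjusted p = 0.0125). All 3 detected Ccnb1 probes, spread over chr13:101548722-101553508 (mm9), lay between -2.29 and -2.19.

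Ccnf, an F-box cyclin that directs ubiquitin to cell cycle proteins in G2, read 2.82, 2.48, 1.90 and 2.20 in Sca-1- samples. In Sca-1+ samples it read 0.57, 0.52, 0.03 and 0.65, again with no overlap (-1.91 ± 0.23, 3.75-fold, adjusted p = 0.00595). The small adaptors Cks1b and Cks2, which help CDKs hold their substrates, differed by -1.44 (adjusted p = 0.0855) and -1.15 (adjusted p = 0.466) and did not pass unpaired. With the slide as a block both passed, at 0.00434 and 0.00288. Cks2 was the clearest case of a gene set apart by slide 4: its 3 other Sca-1- arrays read 1.60 to 1.69 and slide 4 read 0.08, while its Sca-1+ arrays read 0.31 to 0.54 and -0.93.

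Promoters of some of the mitotic genes that were lower are shown, picked because they hold short elements close to their starts. Of these, Cks1b was called lower only with the slide as a block. RefSeq promoter windows (build GRCm38.p6, 250 bases before to 50 after a start) matched 35 of the 44 members, 8 of them with more than 1 start, in which case a gene counts if any window holds the motif. Ccnd1, Ccnd2, Ccne2, Ccna2, Cdkn1c, E2f4, E2f5, Rb1 and Foxm1 had no entry. The motifs searched, on both strands, were the CHR element TTTGAA, the CCAAT box CCAAT, bound by the factor NF-Y, and the E2F core TTTNNCGC with each N either C or G. No motif overlapped another in the bases printed. Below are the last 160 bases before the start, 5′ to 3′ on the gene's own strand, with matches on either strand in capitals. Cdk1 (chr10:69352913-69353072), Ccnf (chr17:24251410-24251569), Cdc20 (chr4:118437344-118437503) and Cks1b (chr3:89418292-89418451) lie on the minus strand and each have a CHR within 20 bases of the start. Ube2c (chr2:164769769-164769928, plus strand) has its CHR in the reverse direction, and Ccnb2 (chr9:70421555-70421714, minus strand) has its CCAAT boxes in a regular series.
Cdk1: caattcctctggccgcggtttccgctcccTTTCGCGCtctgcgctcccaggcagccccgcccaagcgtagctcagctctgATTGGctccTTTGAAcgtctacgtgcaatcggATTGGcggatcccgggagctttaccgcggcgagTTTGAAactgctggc
Ccnf: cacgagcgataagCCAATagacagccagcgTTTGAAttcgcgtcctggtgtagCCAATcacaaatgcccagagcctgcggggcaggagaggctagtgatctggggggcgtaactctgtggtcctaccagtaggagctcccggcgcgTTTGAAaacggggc
Cdc20: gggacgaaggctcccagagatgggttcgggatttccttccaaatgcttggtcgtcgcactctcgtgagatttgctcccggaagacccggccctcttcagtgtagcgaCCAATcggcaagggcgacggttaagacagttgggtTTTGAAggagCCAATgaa
Cks1b: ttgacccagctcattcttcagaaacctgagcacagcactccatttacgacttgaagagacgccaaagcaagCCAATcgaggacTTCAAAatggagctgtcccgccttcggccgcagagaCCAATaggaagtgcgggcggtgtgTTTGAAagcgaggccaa
Ube2c: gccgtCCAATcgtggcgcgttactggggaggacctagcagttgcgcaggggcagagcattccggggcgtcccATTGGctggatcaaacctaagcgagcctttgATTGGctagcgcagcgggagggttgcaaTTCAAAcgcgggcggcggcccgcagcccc
Ccnb2: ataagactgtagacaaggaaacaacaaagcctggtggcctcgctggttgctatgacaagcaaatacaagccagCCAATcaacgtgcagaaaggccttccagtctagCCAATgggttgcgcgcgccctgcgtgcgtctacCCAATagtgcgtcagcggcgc

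In Cdk1 the CHR elements span -71 to -66 and -15 to -10 counted from the start, with CCAAT boxes at -80 to -76 and -48 to -44 and an E2F core at -131 to -124. The CHR nearest the start spans -14 to -9 in Ccnf, -18 to -13 in Cdc20, -17 to -12 in Cks1b and -29 to -24 in Ube2c. The CCAAT boxes of Ccnb2 begin at -87, -54 and -21. Of the 11 members with transcripts peaking in G2 or mitosis and a promoter entry, 8 (72.7%) had a CHR in the 250 bases before a start. The share was 13.2% of the 10223 tested genes with an entry. Ccnb1, Cks2 and Pttg1, all lower with the slide as a block, had no CHR there. A CCAAT box was present in 10 of the 11 (90.9%), against 40.4%, and more than 1 box in 9 (81.8%), against 15.1%. In the last 40 bases, a window chosen after the positions were seen, 6 of the 11 had a CHR, against 1.5% of tested genes. The genes were classed by textbook knowledge that includes such promoters, so these shares describe the class and are not evidence about these cells. Over all classes, a CHR was present before a start in 7 of 13 members called lower and in 6 of 20 tested members not called. A CCAAT box was present in 10 of the 13 and 10 of the 20. The difference between these shares was not tested.

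**Figure D2:**
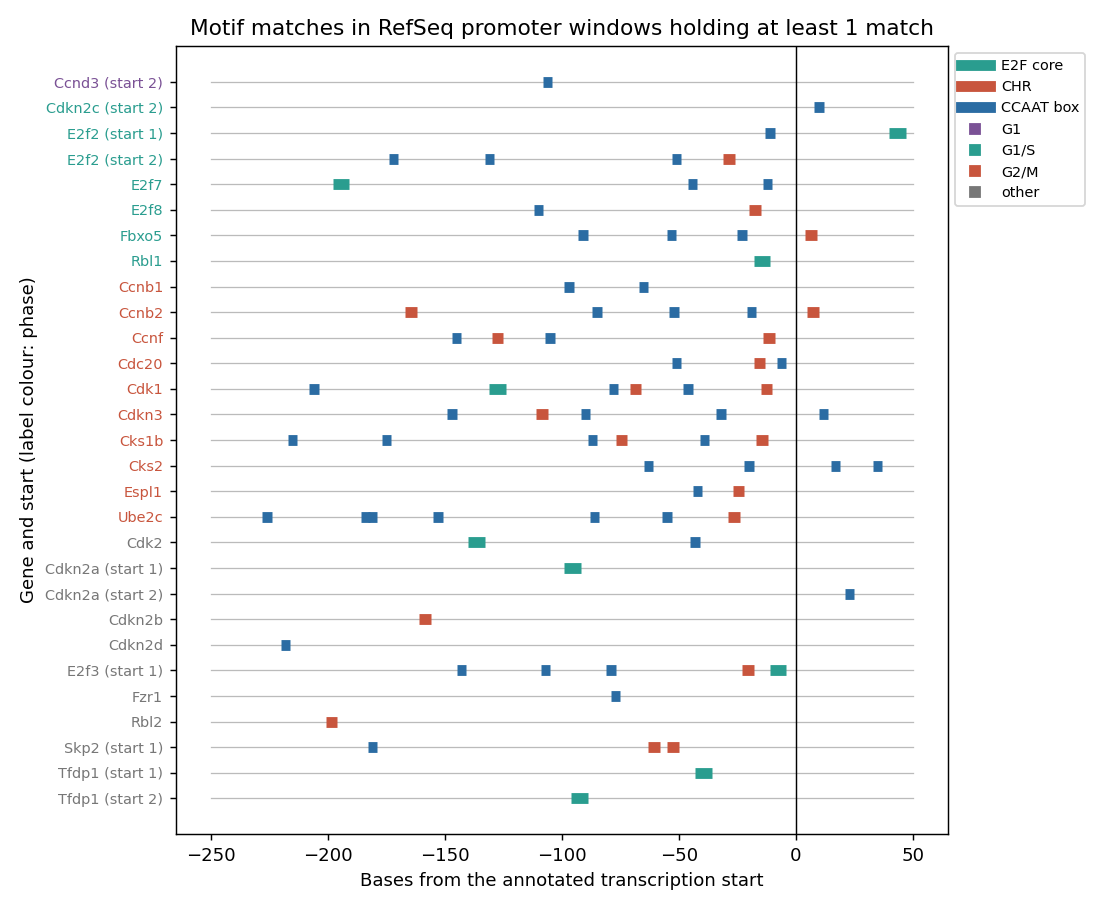
Matches to the CHR element, CCAAT box and E2F core in RefSeq promoter windows of the gene set, by distance in bases from the annotated start (vertical line at 0). Only windows with at least 1 match are drawn, and label colours give the phase class. CHR matches (red) of 6 G2/M genes lie in the last 40 bases, with CCAAT boxes (blue) upstream and, in Cdc20, also between the CHR and the start.

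Regulators and substrates of the APC/C, with Skp2, were the group with the next lowest median after the mitotic cyclins. All 7 differences were negative, 3 fell unpaired and 6 with the slide as a block, with a median of -1.65. Cdc20, the activator that turns the APC/C on in mitosis, read 4.61, 4.42, 4.02 and 3.61 in Sca-1- and 2.44, 2.45, 1.92 and 1.85 in Sca-1+ samples. Its groups were far apart (-2.00 ± 0.26, 4.00-fold, adjusted p = 0.00754). Ube2c, the ubiquitin-conjugating enzyme of the APC/C, read 3.67, 3.70, 3.15 and 2.54 in Sca-1- and 1.43, 1.33, 0.68 and 0.57 in Sca-1+ samples. It fell 4.80-fold (-2.26 ± 0.31, adjusted p = 0.00956), and its other probe gave -2.29.

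Fbxo5 (Emi1), which holds the APC/C inactive from late G1 through G2, read 3.19, 3.04, 2.74 and 2.34 in Sca-1- and 1.32, 1.25, 0.92 and 1.23 in Sca-1+ samples. The activator and the inhibitor of the complex were thus both lower (Fbxo5 -1.65 ± 0.21, 3.13-fold, adjusted p = 0.00663). Pttg1 (securin), which blocks separase until anaphase, read 5.19, 5.25, 4.73 and 3.69 in Sca-1- and 3.04, 3.27, 2.42 and 1.96 in Sca-1+ samples. Its groups did not overlap, and slide 4 was the lowest of both groups. The difference of -2.04 ± 0.41 missed the threshold unpaired (adjusted p = 0.0518) and passed with the slide as a block (0.00116). Espl1, the separase that cuts cohesin, differed by -1.60 (adjusted p = 0.140, and 0.0285 blocked), and Skp2, the F-box protein that targets the inhibitor p27, by -1.04 (adjusted p = 0.166, and 0.0196 blocked).

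Fzr1 (Cdh1), the activator that keeps the APC/C on in G1 and in resting cells, differed by -0.36 ± 0.13, 1.28-fold, and did not pass unpaired or blocked (adjusted p = 0.410 and 0.0989). Its Sca-1+ arrays, at 3.12 to 3.36, all lay below its Sca-1- arrays, at 3.44 to 3.84. The 95% confidence interval of Fzr1, -0.67 to -0.06, did not overlap that of Cdc20, -2.59 to -1.42, although a difference between probes was not tested.

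No tested subunit of the APC/C itself passed. Of 12 tested genes in a list of APC/C core subunits with Ube2s, 1 was called, unpaired or blocked, with a list median of -0.09. That gene was Ube2s, which extends ubiquitin chains on APC/C substrates (-0.78 ± 0.15, 1.71-fold, adjusted p = 0.0451), read at 4.56 to 5.03 in Sca-1- and 4.00 to 4.29 in Sca-1+ samples. The SCF ligase genes Skp1a, Cul1, Rbx1, Fbxw7 and Btrc had 0 of 5 called and a median of 0.04. Subunits of the CDK-activating and mediator kinase complexes (Ccnh, Mnat1, Ccnc and Cdk8) had 0 of 4 called.

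A list of 4 genes whose proteins these ligases destroy did fall. The kinase inhibitors Cdkn1a (0.23) and Cdkn1b (0.01), from another list, were not called. All 4 of Cdc6, Gmnn, Cdt1 and Wee1 were called, with a median of -1.40. Cdc6, which loads the replicative helicase, read -0.61 to -0.13 in Sca-1- and -2.91 to -2.03 in Sca-1+ samples (-2.22 ± 0.22, 4.65-fold, adjusted p = 0.00503). Cdt1, its partner in loading, fell 2.71-fold (adjusted p = 0.0353), and Gmnn (geminin), which blocks Cdt1, fell 2.58-fold (adjusted p = 0.0345). Wee1, the kinase that holds Cdk1 inactive, fell 1.83-fold (adjusted p = 0.0443). Over the whole list of 36 other control genes, 35 were tested, 5 fell and 0 rose, with a median of -0.08. Among all tested genes, 1.58% were called lower and 0.126% higher. The list and its parts were chosen with earlier results of these data known. Without any 1 of Sca-1- replicates 1 to 3 or Sca-1+ replicates 1 to 3 the list had 1 call. Without Sca-1+ replicate 4 it had 3, and without Sca-1- replicate 4 it had 4. Of 5 MuvB subunits 0 were called unpaired, while Lin9 passed with the slide as a block (-0.84, adjusted p = 0.0746, and 0.00805 blocked).

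**Figure D3:**
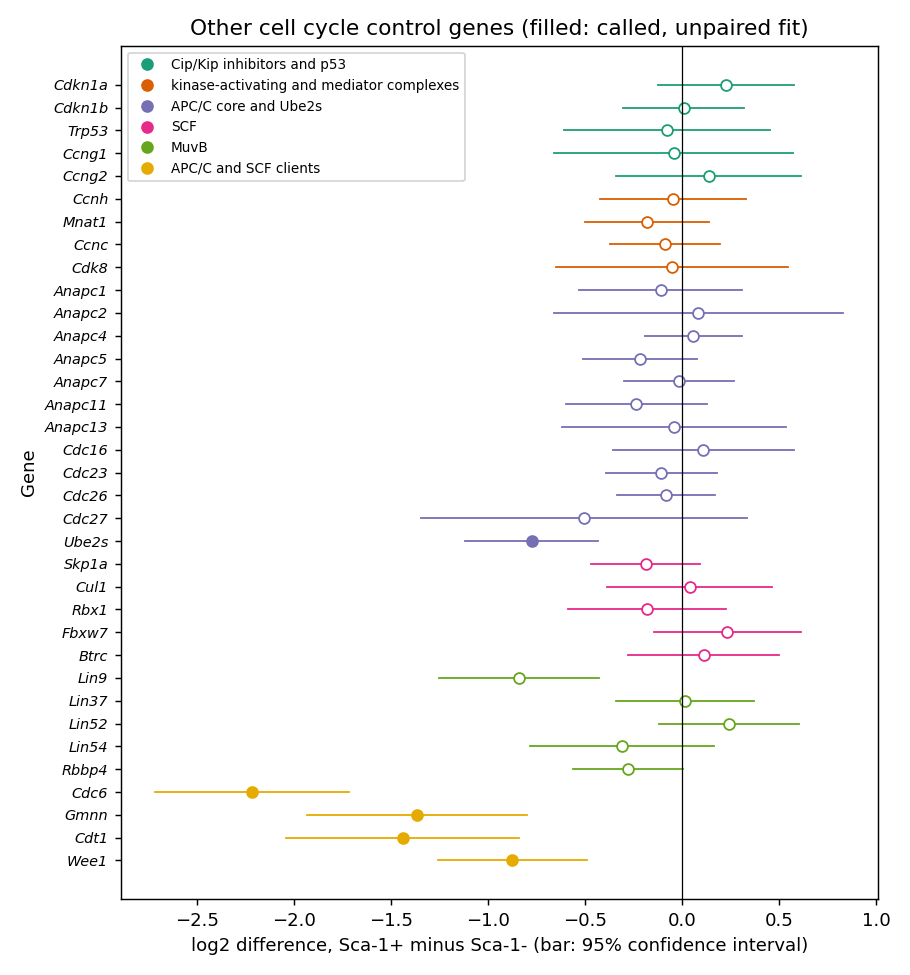
Difference (log2, Sca-1+ minus Sca-1-) with its 95% confidence interval for the 35 tested genes of the list of other cell cycle control genes, coloured by complex or role. Filled points are called in the unpaired comparison: Ube2s, Cdc6, Gmnn, Cdt1 and Wee1, all to the left of 0.

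The transcription factors of the mitotic programme were lower as well. Foxm1, which drives G2 and mitotic genes, read 1.70, 1.44, 1.09 and 0.94 in Sca-1- and -0.13, -0.06, -0.74 and -0.51 in Sca-1+ samples. The groups did not overlap (-1.65 ± 0.22, 3.14-fold, adjusted p = 0.00886). Mybl2 (B-Myb), an E2F target that turns MuvB into an activator, read 2.65, 2.85, 2.23 and 1.85 in Sca-1- and 1.19, 0.91, 0.82 and 0.66 in Sca-1+ samples. Its fall was 2.83-fold (-1.50 ± 0.23, adjusted p = 0.0157), and second probes of Foxm1 and Mybl2 gave -1.46 and -1.43.

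The E2F family was divided. Of 13 E2F, dimerisation partner and pocket protein genes, 3 fell, and the median of the 13 was -0.23. E2f7 and E2f8 are atypical repressors that E2F itself induces and that shut E2F targets down late in S phase. E2f7 read 1.00, 0.62, 0.20 and 0.28 in Sca-1- and -1.26, -1.52, -1.98 and -1.58 in Sca-1+ samples. The groups lay on either side of the 75th percentile (-2.11 ± 0.22, 4.32-fold, adjusted p = 0.00503). This rests on 1 probe, at chr10:110224331-110224390 (mm9), since a dimmer E2f7 probe at chr10:110219255-110219314 (mm9), detected on all 8 arrays, differed by -0.15. Which part of the transcript each probe reads was not analysed here.

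E2f8 read 2.43, 2.03, 1.82 and 1.49 in Sca-1- and 0.22, -0.16, -0.60 and -0.24 in Sca-1+ samples. No other E2f8 probe was on the array, and the fall was 4.39-fold (-2.14 ± 0.24, adjusted p = 0.00526). E2f2, an activator of replication genes, read 3.00, 2.82, 2.33 and 2.54 in Sca-1- and 1.55, 1.39, 0.77 and 1.35 in Sca-1+ samples. Its groups were also apart (-1.41 ± 0.22, 2.66-fold, adjusted p = 0.0150). Tfdp1 (DP1), a partner that typical E2F proteins need to bind DNA, read 0.76, 0.34, 0.62 and 1.16 in Sca-1- and -0.27, -0.21, -0.33 and 0.58 in Sca-1+ samples. Its groups overlapped only through slide 4, and it passed with the slide as a block (-0.78, adjusted p = 0.297, and 0.0213 blocked).

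E2f1, the best-known activator, read 2.68 to 2.99 in Sca-1- and 2.49 to 2.74 in Sca-1+ samples and differed by -0.20 (95% confidence interval -0.50 to 0.09). That interval did not overlap the interval of E2f2, -1.90 to -0.92. E2f1 and E2f2 were each read from their only probe on the array, and a difference between these genes was not tested. The other activator, E2f3, differed by -0.23, and the repressors E2f4, E2f5 and E2f6 by 0.29, 0.17 and -0.28. None of these passed unpaired or blocked. Of the pocket proteins that hold E2F in check, Rb1 differed by -0.16 and Rbl2 (p130) by 0.02, neither called, and Rbl1 (p107, -0.69, adjusted p = 0.814) varied widely between slides, with -1.06 from its second probe. The partner Tfdp2 differed by -0.16. E2f4, E2f5, Rbl2 and Cdk7 had the 4 positive differences among the 40, none above 0.29.

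At the start of DNA replication, cyclin E1 fell and the kinases tested with it did not pass unpaired. Ccne1, encoding cyclin E1, which with Cdk2 triggers DNA replication, read 2.81, 2.69, 2.38 and 1.49 in Sca-1- and 0.88, 0.71, 0.17 and -0.13 in Sca-1+ samples. It fell 3.82-fold (-1.93 ± 0.34, adjusted p = 0.0291), and its second probe gave -1.90. Cdk2 read -1.13, -1.43, -1.19 and 0.22 in Sca-1- and -1.93, -1.98, -1.80 and -0.23 in Sca-1+ samples. Slide 4 was higher than the other slides in both groups, and the difference of -0.60 ± 0.49 passed only with the slide as a block (adjusted p = 0.961, and 0.0223 blocked). Cdk7, of the CDK-activating kinase, read 0.33, 0.10, -0.13 and 1.23 in Sca-1- and 0.02, 0.40, 0.31 and 1.11 in Sca-1+ samples, with overlapping groups (0.08, adjusted p = 1).

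The promoters of Ccne1 (chr7:38107491-38107650, minus strand) and E2f1 (chr2:154569427-154569586, minus strand) are printed for contrast with the mitotic promoters. They belong to the same G1/S class, of which Ccne1 fell and E2f1 did not pass, and neither window has any of the motifs searched.
Ccne1: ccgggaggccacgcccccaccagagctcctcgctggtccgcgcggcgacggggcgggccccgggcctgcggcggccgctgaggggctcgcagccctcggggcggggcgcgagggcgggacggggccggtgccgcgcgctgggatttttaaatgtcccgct
E2f1: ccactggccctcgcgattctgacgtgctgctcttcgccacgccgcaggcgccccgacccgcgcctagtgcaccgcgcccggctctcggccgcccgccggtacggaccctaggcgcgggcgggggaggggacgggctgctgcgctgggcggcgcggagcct

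Of 9 G1/S members with an entry, 2 (22.2%) had a CHR, 4 (44.4%) a CCAAT box and 2 (22.2%) an E2F core before the start. Among tested genes these shares were 13.2%, 40.4% and 3.71%. Among the 12 weakly periodic or unassigned members with an entry, they were 33.3%, 41.7% and 33.3%. The CHR of E2f8 spans -20 to -15 and the E2F core of Rbl1 spans -18 to -11. No match says only that these letters are absent from these windows.

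The D-type cyclins and their kinases, which answer growth signals, differed least among the cyclin and kinase groups. All 5 differences were negative, 0 passed unpaired and 2 with the slide as a block, and the median was -0.32. Ccnd3 read 5.94, 5.92, 5.33 and 5.34 in Sca-1- and 5.12, 4.87, 4.47 and 4.87 in Sca-1+ samples. Its groups did not overlap (-0.80 ± 0.21, 1.74-fold, adjusted p = 0.159, and 0.0189 blocked), and its second probe gave -0.96. Ccnd2 read 2.81, 2.55, 1.89 and 1.05 in Sca-1- and 2.02, 1.96, 1.31 and 0.53 in Sca-1+ samples. The Sca-1+ value was lower on each slide, by 0.52 to 0.79, while the levels ran down together across slides (adjusted p = 0.916, and 0.0154 blocked).

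Ccnd1 read 5.63, 5.32, 5.15 and 4.61 in Sca-1- and 5.05, 5.21, 4.62 and 4.61 in Sca-1+ samples, and its groups overlapped (-0.31, 95% confidence interval -0.87 to 0.25). Cdk4 read 5.09, 5.19, 4.82 and 5.18 in Sca-1- and 4.66, 4.67, 4.61 and 5.04 in Sca-1+ samples, with overlap through slide 4 (-0.32, 95% confidence interval -0.67 to 0.03). Cdk6, detected on 3 arrays of each group, differed by -0.27 (95% confidence interval -1.23 to 0.70). None of these 3 passed in either comparison.

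Of the tested CDK inhibitors and Cdkn3, 1 fell, 0 rose and all 3 differences were negative. Cdkn2c (p18), an INK4 inhibitor of Cdk4 and Cdk6, read 1.67, 1.87, 1.48 and 1.43 in Sca-1- and 0.90, 0.84, 0.72 and 0.99 in Sca-1+ samples. It fell 1.68-fold, the smallest of the 15 calls (-0.75 ± 0.14, adjusted p = 0.0412). Cdkn3, a phosphatase that acts on CDKs and whose transcript peaks in mitosis, read 1.85, 1.63, 1.11 and 0.19 in Sca-1- and -0.41, -0.35, -1.27 and -1.65 in Sca-1+ samples. The Cdkn3 groups did not overlap and the difference was large (-2.12 ± 0.43), yet it passed only with the slide as a block (adjusted p = 0.0533, and 0.00116 blocked). Cdkn2d (p19), another INK4 inhibitor, read 5.83, 5.80, 5.44 and 5.28 in Sca-1- and 5.61, 5.41, 5.16 and 5.07 in Sca-1+ samples, with overlapping groups (-0.28, adjusted p = 0.871).

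The other 3 inhibitors and cyclin E2 were too dim to test. Ccne2 was detected on 0 of 8 arrays. Cdkn1c (p57) was detected on 1 Sca-1- array, Cdkn2b (p15) on 2 Sca-1- arrays and Cdkn2a (p16 and p19ARF) on 1 Sca-1+ array, that of slide 4, where it read -1.51 against -6.00 to -5.64 on the other Sca-1+ arrays. No fold is given for them, since the lower bounds came out under 1. Of the inhibitors outside the set, Cdkn1a (p21) differed by 0.23 and Cdkn1b (p27) by 0.01, and in the list of Cip/Kip inhibitors, p53 and the cyclins Ccng1 and Ccng2 0 of 5 were called.

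Ordered by phase, the medians were graded. The classes follow textbook times of peak transcript level and share members with the roles above. They too were set with earlier results of these data known. Of 13 G2/M genes 8 fell unpaired and 13 with the slide as a block, with a median of -2.04. Of 9 tested G1/S genes 7 fell either way, with a median of -1.50. Of 5 G1 cyclins and kinases 0 fell unpaired and 2 blocked, with a median of -0.32. Of 13 weakly periodic or unassigned genes 0 fell unpaired and 3 blocked (Cdk2, Skp2 and Tfdp1), with a median of -0.23. The difference between the classes was described and not tested.

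**Figure D4:**
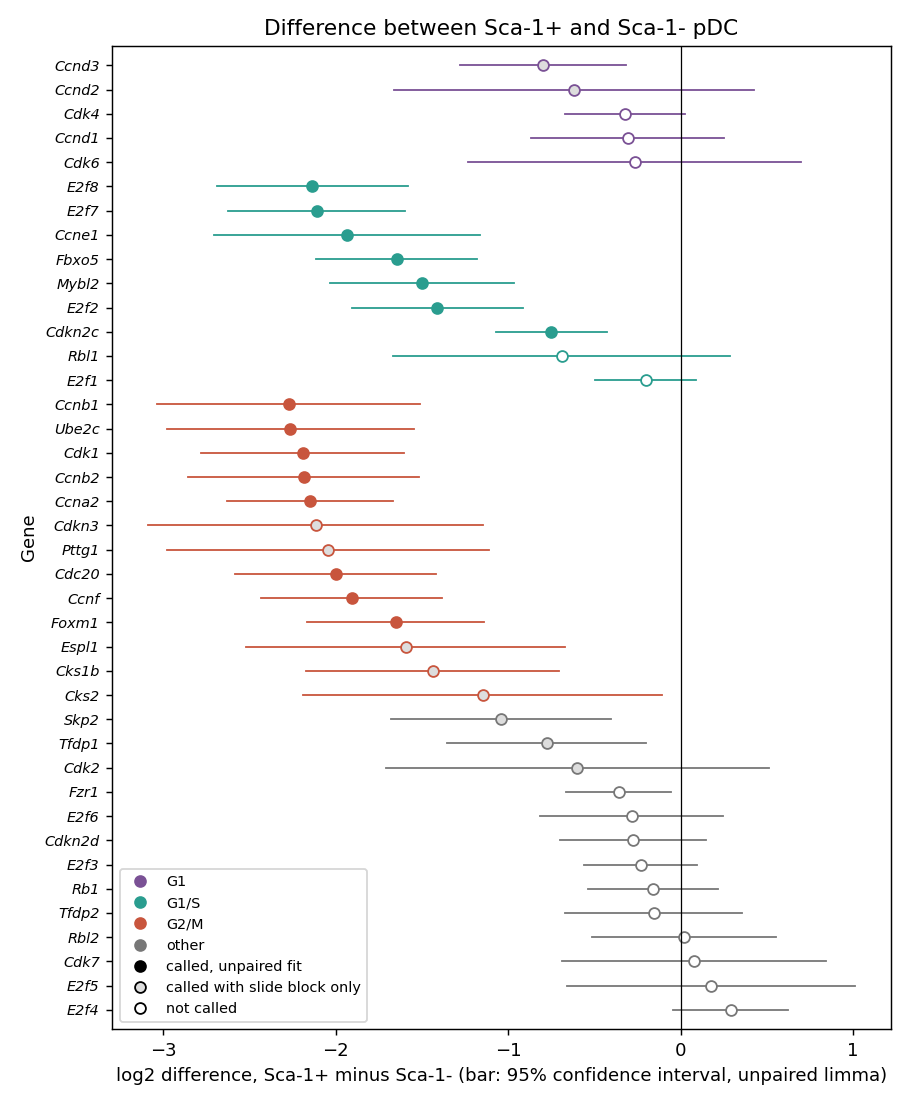
Difference (log2, Sca-1+ minus Sca-1-) with its 95% confidence interval in the unpaired comparison for the 40 tested genes, by phase class. Filled points are called unpaired (15), grey points only with the slide as a block (10), and open points in neither. All 13 G2/M points lie at or below -1.15.

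On each slide the G2/M median was the lowest and the G1/S median the next. Within slides 1 to 4 the G2/M median was -2.17, -1.97, -2.30 and -1.76, and the G1/S median was -1.47, -1.79, -1.56 and -1.19. The G1 medians were -0.70, -0.52, -0.53 and -0.14, and the medians of the unassigned genes -0.31, -0.36, -0.18 and -0.15. Of the 40 tested genes, 33 were lower in the Sca-1+ sample of all 4 slides. On slide 4 the difference was the smallest in size in all 15 called genes and in 33 of the 40. Levels of G2/M genes also varied together within a group: centred on each gene's mean, their median was 1.45, 1.25, 0.98 and 0.44 on the Sca-1- arrays of slides 1 to 4, and -0.67, -0.71, -1.31 and -1.32 on the Sca-1+ arrays.

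**Figure D5:**
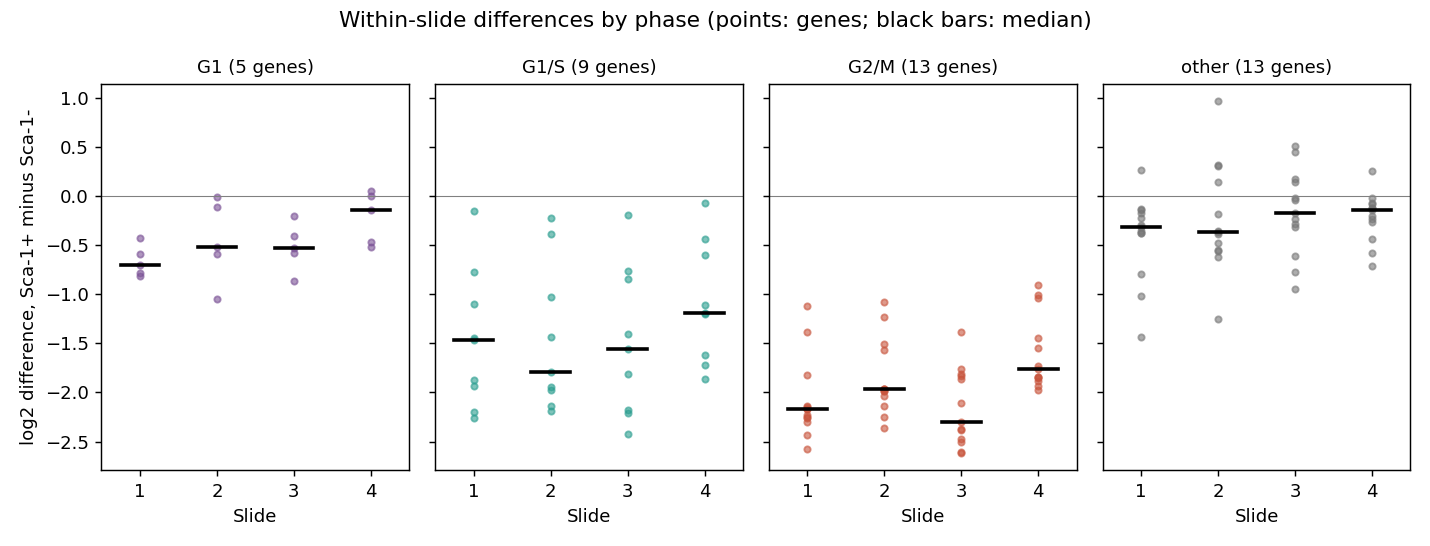
Difference (log2, Sca-1+ minus Sca-1-) within each of the 4 slides for the tested genes of each phase class. Points are genes and black bars are medians. The G2/M medians lie between -2.30 and -1.76 and the G1 medians between -0.70 and -0.14.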

How the data were processed

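The authors used Agilent Feature Extraction 10.7.3.1, per the file headers, to read spot intensity, a linear value, from arrays of 62976 spots hybridised with Cy3-labelled cRNA from 100 ng of RNA. The deposited processed intensity was already background-corrected, and probe positions refer to mm9, per the file headers. Mean signal, local background and spot marks (control, outlier, well above background) were deposited by the authors in the same files. Log2 values by the authors fill the deposited series table.

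Control spots and 105 to 162 outlier spots an array were left out (saturated spots numbered 0). Replicate spots were averaged as log2 values, each array's 75th percentile was subtracted, and a gene was read from its brightest probe. Probes were named through their accession (26582), a current or older symbol (3094, Cdk1 among them where the files use an older name) or the name in the files (26005). The 44 members have 66 probes, 58 of them detected, and in all 16 members with more than 1 detected probe these share a sign. A gene was tested if well above background on at least 4 of 8 arrays.

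Groups, taken from the sample titles, were compared in R 4.3.3 by an unpaired, two-sided limma fit (version 3.58.1, lmFit with eBayes; version 1.17.8 of data.table), and Benjamini-Hochberg adjustment over all 19818 genes. The code was tested on simulated data. Arrays with the same replicate number lay on the same slide, per the file headers, and their deviations from the group means correlated at 0.44, 0.43, 0.64 and 0.89. All exceed 0.1, so the numbers were taken as pairs, although so did other combinations among replicates 1 to 3 (0.12 to 0.54). The blocked value is given where it changes the call of a member or of a marker reported. Other background correction, normalization, scaling, filters and probe choices, and arrays or slides left out, were tried as alternatives. All 44 members are named, and values on every array are given for up to 4 members a role group with the smallest adjusted p. From the other control genes those called are named. Members, classes and lists were chosen with earlier results of these data known. Promoters are from RefSeq. Plots used matplotlib 3.10.9, pandas 2.3.3 and numpy 2.4.6 under Python 3.11.15. The number of arrays limits the precision. Results on some marker genes are not reported here.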

Additional observations from a re-analysis of the deposited data

Results flagged for a closer look

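In 80 groups of 4 levels (40 genes, each in Sca-1- and Sca-1+ pDC), 5 had an array far from the other 3, where chance gives about 1 in 20 groups. All 5 were on slide 4. Cdk4 read 5.04 in Sca-1+ replicate 4, against 4.61 to 4.67 in the others, and Cdk2 read -0.23 there against -1.98 to -1.80. Tfdp1 read 0.58 in Sca-1+ replicate 4 against -0.33 to -0.21. Cks2 was low on slide 4 in both groups, at 0.081 in Sca-1- replicate 4 against 1.60 to 1.69 and at -0.93 in Sca-1+ replicate 4 against 0.31 to 0.54. Without slide 4, Cdk2, Cks2 and Tfdp1 were called lower in the unpaired comparison.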

How the results depend on the processing

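Members called lower numbered 15 in the unpaired comparison and also with quantile normalization, scaling on detected probes or the deposited series table, 18 with normexp background correction, 17 among genes detected on all 8 arrays and 11 with no filter on dim probes, which tests more genes. Averaging a gene's probes also gave 15, of which 14 were among the original 15, and Cdk1 gave way to Pttg1. Over all tested genes, lower calls numbered 314 unpaired, 305 with quantile normalization, 291 with scaling on detected probes and 306 with the deposited series table. They numbered 247 with normexp, 289 among genes detected on all 8 arrays, 176 with no filter and 292 with probes averaged. Members called higher numbered 0 under every alternative run; at an unadjusted p under 0.05, limma had 0 higher and 24 lower unpaired, and 1 higher and 30 lower blocked. With the replicate block (slide), 25 members and 1233 genes were called in place of 15 and 339, and without slide 4 these were 23 and 879. Settings added after seeing the data left out slide 1, 2 or 3, with 0, 0 and 1 members and 1, 2 and 29 genes called unpaired. Combined with the replicate block they gave 429, 556, 292 and 941 genes without slide 1, 2, 3 or 4, and 25 members without slide 4. With no filter 182 genes were called, and with 1 array left out 163 to 463 (for Sca-1- replicates 1, 2 and 3 the counts were 165, 163 and 205, and for Sca-1+ replicates 2 and 3 they were 225 and 176). Over single arrays left out, members called lower ranged from 10 to 18. The G2/M median was -1.72 with normexp, and the median of the unassigned genes was -0.13 without Sca-1- replicate 4, the highest of -0.32 to -0.13 over single arrays left out. The list of other control genes had 3 calls with quantile normalization or the deposited series table, 1 with no filter, 1 to 4 over single arrays left out, 0 without slide 1, 2 or 3, and 2 with the replicate block without slide 3. The cause of these shifts was not tested.

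Signs turned only for genes not called. Over single arrays left out, Cdk6 ranged from -0.58 to 0.070 (0.070 without Sca-1+ replicate 1), Cdk7 from -0.14 to 0.36, E2f5 from -0.099 to 0.46 and Rbl2 from -0.11 to 0.19. With a gene's probes averaged Cdk7 was -0.14. Without slide 2, E2f5 was -0.089 and Rbl2 -0.081, and without slide 3, Cdk7 was -0.044 and Rbl2 -0.035, in each case with and without the replicate block. Depth in an array is signal over background: Ccne2, Cdkn1c, Cdkn2a and Cdkn2b were too dim to test, and Cdk6 was detected on 6 of 8 arrays.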
